A study of Homo sapiens with 4 samples.

Results

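The transcripts of 10 histone chaperones outside the ANP32 family were followed in the acute myeloid leukemia (AML) line Kasumi-1, an established line with the t(8;21) translocation, after knockdown of ANP32B. The 10 genes, NAP1L1, NAP1L4, ASF1A, ASF1B, CHAF1A, CHAF1B, HIRA, NASP, DAXX and SUPT16H, were listed by name, with earlier results of these data known, and no threshold on their values was used. All 10 were found among the 18567 genes of the expression table, and all 10 passed the filter on low values. RNA was sequenced from 4 samples, 2 in a control group (NC) and 2 in a group with short hairpin RNA knockdown of ANP32B (sh-ANP32B). The labels give NC as untreated and without a hairpin, while the study's methods describe a control hairpin and puromycin selection, so the treatment shared by the groups was not settled. Which of the study's ANP32B hairpins each sh-ANP32B sample carried was not stated, and nothing states that the 2 samples of a group came from separate cultures, so p-values measure only the spread between these samples, which may be technical. The paper's general statement that experiments were repeated independently does not say what the 2 sequenced samples of a group are.

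Histone chaperones bind free histones and hand them to DNA, to each other or to assembly enzymes, which prevents the basic proteins from aggregating. Chromatin assembly factor 1 (CAF-1) places new H3-H4 behind the replication fork, whereas the HIRA complex and DAXX with ATRX place the variant H3.3 outside replication. ASF1A, ASF1B and NASP carry the H3-H4 supply, and the NAP1 family and the FACT complex handle H2A-H2B. ANP32B itself is counted among the histone chaperones, and the comparison asks whether transcripts of the other chaperones differed when ANP32B was low.

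Levels are given as TPM, a relative abundance corrected for transcript length and for the total of each sample. The 2 NC samples held ANP32B at 384 and 392 TPM, and the 2 knockdown samples at 51.8 and 41.2 TPM, which is 11.99% of the NC mean. It fell by 3.04 on the log2 scale (SE 0.150, limma adjusted p 0.00516). The TPM sums lay between 997812 and 998314 by construction, so sequencing depth was unknown. The share of mitochondrially encoded transcripts was 12.9% and 13.1% in NC, against 11.4% and 8.43% under knockdown. The markers of the line fixed for the check were RUNX1T1, KIT, CD34, MPO, CD33, SPI1 and GATA2, of which 5 had values. RUNX1T1, a gene that t(8;21) leukemias carry as a fusion with RUNX1, was at 17.6 and 15.6 TPM in the controls, against 31.2 and 26.8 TPM under knockdown (log2 change 0.77, limma adjusted p 0.0632). SPI1 was at 251 and 241 TPM in the controls, against 301 and 364 TPM under knockdown (log2 change 0.43, limma adjusted p 0.131). CD33 was at 68.3 and 58.5 TPM in the controls, against 69.05 and 70.1 TPM under knockdown (log2 change 0.14, limma adjusted p 0.619). KIT was at 1.55 and 2.31 TPM in the controls, against 3.41 and 2.76 TPM under knockdown (log2 change 0.49, limma adjusted p 0.37). GATA2 overlapped between the groups, from 1.62 to 2.15 TPM, so KIT and GATA2 were low in all 4 samples. Of the 5 markers, 4 were higher without overlap, where the share over all genes was 33.2%. None passed the test, and their part in the chaperone values was not tested. CD34 and MPO were not found by symbol among the genes of the expression table, nor were the T cell, erythroid, epithelial and fibroblast markers. Why they are absent is not stated, so their levels are unknown here, which limits this check of the line. CD79A and PAX5, markers of B cells, ranged from 0 to 3.70 TPM.

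No chaperone passed the test, but all 10 had a negative log2 fold change in sh-ANP32B, which for NAP1L1 (-0.05) and NAP1L4 (-0.01) turned positive in 4 of 13 alternatives each, GC correction among them. The call was a limma adjusted p under 0.05 over 16817 genes, which 0 of the 10 chaperones reached, against a background of 1.18% of genes called lower and 2.14% called higher. At an unadjusted limma p under 0.05 there were 5 chaperones, CHAF1B, NASP, ASF1B, SUPT16H and CHAF1A, each below NC. Of the 16817 genes tested, 3995 reached this cutoff in either direction, a much larger share than that of the adjusted call. A log2 fold change below 0 was found in 42.1% of all genes tested. Both sh-ANP32B samples lay below both NC samples for 8 of the 10, where the background was 21.4%, and above both for 0, where it was 33.2%. The exceptions were NAP1L1 and NAP1L4, whose groups overlapped. The median log2 fold change of the 10 was -0.38, with a range from -0.83 to -0.01, and the median over all genes tested was 0.08. The study's criterion was a p under 0.05 and a log2 change beyond 0.5 from DESeq2, without stating whether p was adjusted. Here and below, its cutoffs were applied to limma fold changes and unadjusted limma p, so the counts are not the study's. By these cutoffs 4 chaperones counted as lower, where the background was 6.55%, and 0 as higher, where it was 12.1%.

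The count depended on the processing. With GC correction 5 chaperones had a limma adjusted p under 0.05 and lay below NC, the same 5 as above, against 6.47% of all genes lower and 11.1% higher. Median-of-ratios scaling called CHAF1B, NASP and ASF1B, against 1.75% of genes lower and 1.4% higher. Leaving out mitochondrial genes called the same 3, against 1.32% and 1.79%, as did a filter of at least 1 TPM in all 4 samples, against 2.06% and 3.55%. With the replicate number as a block there were 3, against 2.92% and 5.84%, and with the block and GC correction 5, against 5.63% and 9.64%. No chaperone was called without a filter, against 1.02% and 1.81%, or with a pseudocount of 0.1, against 0.993% and 1.83%. None was called without the abundance trend, where 0% of genes passed. In that fit 5 chaperones had an unadjusted limma p under 0.05, as did 3701 of all genes in either direction. Without NC replicate 1 the count was 0, against 0.476% lower and 1.45% higher, and without NC replicate 2 it was 0, against 0.351% and 1.27%. Without sh-ANP32B replicate 1 it was 6, against 9.68% and 14.6%. Without sh-ANP32B replicate 2 it was 5 lower and 1 higher, against 8.47% and 12.3%.

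**Figure D1:**
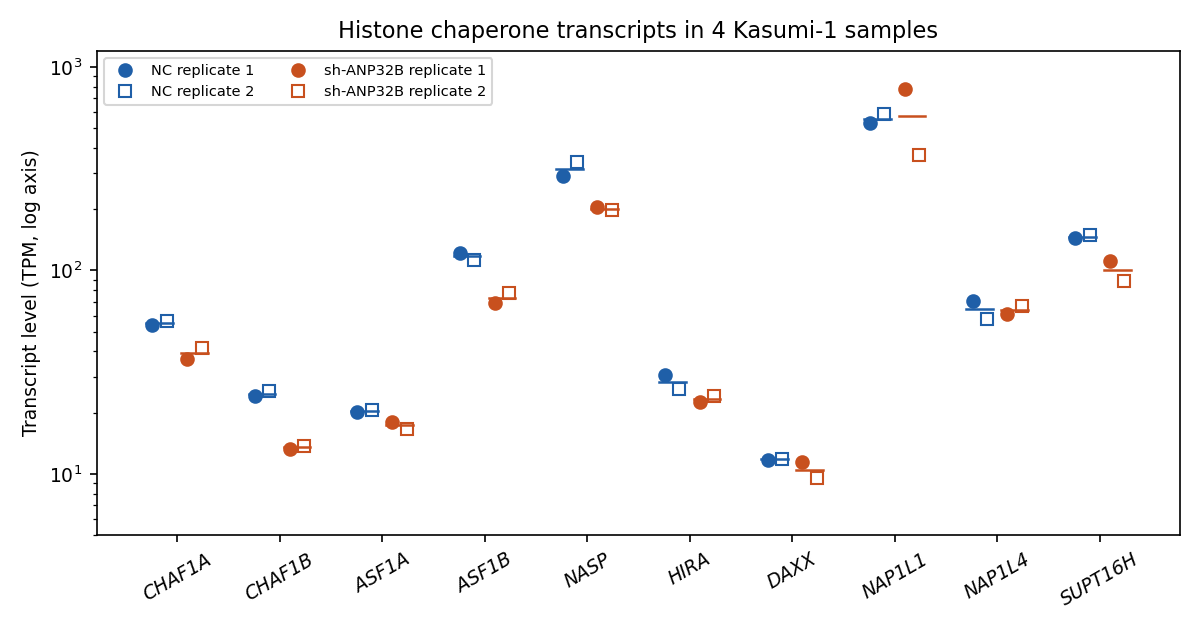
Transcript level of the 10 chaperones in each sample, in TPM on a log axis. Blue marks are the NC samples and orange marks the sh-ANP32B samples (circle, replicate 1, open square, replicate 2), and each short line is the mean of a group. The groups do not overlap for 8 genes, and the sh-ANP32B samples of NAP1L1, at 776 and 370 TPM, lie on both sides of the NC samples.

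The chaperones were expressed at very different levels. In NC the order of the mean levels was NAP1L1 (556 TPM), NASP (316), SUPT16H (146), ASF1B (117), NAP1L4 (64.5), CHAF1A (55.2), HIRA (28.4), CHAF1B (24.8), ASF1A (20.4) and DAXX (11.8). No neighbours in this order had overlapping samples. In sh-ANP32B the order was the same except that ASF1A, at 17.3 TPM, stood above CHAF1B, at 13.5 TPM. With 2 samples a group, the ranges that separate neighbours rest on few values.

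CAF-1 had the lowest fold change among the chaperones, in its middle subunit. CHAF1B (ENSG00000159259, chr21:36385392-36419015, plus strand in hg38) stood at 24.2 and 25.4 TPM in the NC samples, against 13.2 and 13.8 TPM under knockdown. The sh-ANP32B samples were close to each other and well below both NC samples, at 54.5% of the NC mean. The log2 change was -0.83 (SE 0.164, 95% interval -1.22 to -0.44, limma adjusted p 0.0505). CHAF1A (ENSG00000167670, chr19:4402640-4445018, plus strand), the large subunit that binds histones and the replication clamp PCNA, measured 53.7 and 56.6 TPM in the controls and then 36.9 and 41.3 TPM after knockdown. Its groups did not overlap either, and the log2 change was -0.49 (SE 0.145, limma adjusted p 0.111). RBBP4, the remaining CAF-1 subunit, which is shared with many other chromatin complexes, stood at 159 and 152 TPM in the NC samples, against 115 and 89.1 TPM under knockdown, with a log2 change of -0.62 (limma adjusted p 0.0819). CHAF1B shares 89 of its 5104 exon bases with MORC3 on its strand. All 3 CAF-1 subunits had lower values in both sh-ANP32B samples, and none passed the test.

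The ratio of the CAF-1 subunits was also taken within each sample, in plain TPM for the values by sample and as log2 of TPM + 1 for the comparison. CHAF1A stood at 2.22 and 2.23 times the level of CHAF1B in NC, and at 2.78 and 2.999 times in sh-ANP32B. The log2 ratio of TPM + 1 was higher in sh-ANP32B by 0.34 (0.37 with a pseudocount of 0.1), from 1.12 ± 0.00306 to 1.46 ± 0.0759 (SD, n = 2 each). An exact two-sided permutation test gave p = 0.33, the smallest that 2 samples against 2 allow, so this permutation test could not reach significance whatever the values.

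The bases before the starts of CHAF1A, CHAF1B, ASF1B and HIRA are shown. The CAF-1 genes and ASF1B had values that were low together, while HIRA shares their function on H3-H4 and had a smaller fold change. NASP, at a log2 change of -0.65, and SUPT16H, at -0.55, were also low, and their windows are not shown. Each sequence shown is the 250 bases before the RefSeq start (GRCh38.p14, the hg38 coordinates), written 5′ to 3′ on the strand of the gene. Capitals mark the letters of the CCAAT box (CCAAT), the cell cycle homology region (CHR, TTTGAA), the E-box (CACGTG) and the E2F motif (TTTCCCGC, TTTGGCGC or TTCCCGCC) on either strand.
CHAF1A, chr19:4402390-4402639, plus strand: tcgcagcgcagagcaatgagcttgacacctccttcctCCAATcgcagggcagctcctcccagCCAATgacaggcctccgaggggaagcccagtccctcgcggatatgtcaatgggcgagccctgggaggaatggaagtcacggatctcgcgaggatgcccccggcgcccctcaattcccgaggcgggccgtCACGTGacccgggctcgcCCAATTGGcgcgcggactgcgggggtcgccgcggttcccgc
CHAF1B, chr21:36385142-36385391, plus strand: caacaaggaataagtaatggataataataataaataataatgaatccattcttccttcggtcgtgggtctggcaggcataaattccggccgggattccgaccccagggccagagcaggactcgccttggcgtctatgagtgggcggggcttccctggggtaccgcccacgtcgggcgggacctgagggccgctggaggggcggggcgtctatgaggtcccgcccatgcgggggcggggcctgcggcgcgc
ASF1B, chr19:14136590-14136839, minus strand: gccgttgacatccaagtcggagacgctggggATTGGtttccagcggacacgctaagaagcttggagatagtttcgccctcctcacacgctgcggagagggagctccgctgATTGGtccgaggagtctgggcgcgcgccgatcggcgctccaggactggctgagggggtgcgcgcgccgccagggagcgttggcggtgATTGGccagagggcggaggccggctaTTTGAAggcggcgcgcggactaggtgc
HIRA, chr22:19431734-19431983, minus strand: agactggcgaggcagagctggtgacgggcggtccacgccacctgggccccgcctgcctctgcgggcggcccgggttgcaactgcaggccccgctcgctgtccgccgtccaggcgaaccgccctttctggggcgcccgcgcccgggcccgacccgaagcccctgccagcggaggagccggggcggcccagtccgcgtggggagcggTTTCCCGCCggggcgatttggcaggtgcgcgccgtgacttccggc

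No motif was held by all 4 windows, while CCAAT was in those of CHAF1A and ASF1B and the GC box (GGGCGG) in those of CHAF1B, ASF1B and HIRA. The ASF1B window held 3 CCAAT boxes and the only CHR match among the chaperones, 27 bases before the start. Its last 24 bases lie in an exon of a longer ASF1B transcript in GENCODE v44. The CHAF1A window held 4 CCAAT matches, of which the pair nearest the start overlaps on opposite strands, and an E-box 59 bases before the start. The CHAF1B window held none of the marked letters and 6 GC boxes, which are not in capitals. The HIRA window held TTTCCCGC and TTCCCGCC, which overlap, 45 bases before the start, and this RefSeq start lies inside the longer GENCODE range of HIRA. Among 35116 windows of the same length before RefSeq starts, 32% held CCAAT, 13.3% TTTGAA, 6.34% CACGTG, 1.39% TTTCCCGC, 0.55% TTTGGCGC, 2.72% TTCCCGCC and 42.6% GGGCGG. Windows were found for 9 of the 10 chaperones, and DAXX was the other. Of these 9, CCAAT was held by 4 and GGGCGG by 7, where a gene counted if any of its windows held the motif. NAP1L4 had several windows and counted for both, so these counts by gene are not directly comparable with the shares by window. The windows of NASP and SUPT16H, not shown, differed from each other. That of NASP held CCAAT and GGGCGG, and that of SUPT16H held CACGTG alone among the motifs sought. A match is a description of the letters and was not tested for binding.

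The ASF1 paralogs differed in level, and ASF1B had the more negative log2 change. ASF1B (ENSG00000105011, chr19:14119512-14136613, minus strand), the form tied to proliferating cells, measured 122 and 113 TPM in the controls and then 68.9 and 77.8 TPM after knockdown. The groups were separate, with sh-ANP32B at 62.6% of NC and a log2 change of -0.67 (SE 0.137, 95% interval -0.998 to -0.343, limma adjusted p 0.0543). ASF1A (ENSG00000111875, chr6:118894152-118909171, plus strand), which works with the HIRA complex, stood at 20.2 and 20.6 TPM in the NC samples, against 18.0 and 16.7 TPM under knockdown. Its sh-ANP32B samples also lay below NC, but by a log2 change of -0.22 (SE 0.164, limma adjusted p 0.459) whose 95% interval from -0.62 to 0.17 includes 0. ASF1A shares 205 of its 2589 exon bases with MCM9 on the opposite strand, and whether strand was used in counting is not stated.

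ASF1B stood at 6.03 and 5.47 times the level of ASF1A in NC, and at 3.83 and 4.65 times in sh-ANP32B. The log2 ratio of TPM + 1 was lower in sh-ANP32B by a difference of -0.45 (2.46 ± 0.0972 in NC and 2.02 ± 0.192 in sh-ANP32B, SD, n = 2 each), and the groups did not overlap. The exact permutation p was 0.33, its smallest possible value at this group size, so it neither shows nor limits a difference. The regulators of ASF1 were not called. CDAN1, which holds ASF1 in the cytoplasm, measured 38.5 and 36.9 TPM in the controls and then 35.3 and 34.9 TPM after knockdown (log2 fold change -0.10, limma adjusted p 0.724). The kinases TLK1 and TLK2, which phosphorylate ASF1, had log2 changes of -0.31 and 0.28 with limma adjusted p of 0.395 and 0.408.

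NASP (ENSG00000132780, chr1:45583846-45618904, plus strand), which keeps the reserve of soluble H3-H4, was the most abundant of the H3-H4 chaperones. It stood at 292 and 340 TPM in the NC samples, against 205 and 197 TPM under knockdown. Both sh-ANP32B samples were below both NC samples, at 63.6% of the NC mean. The log2 change was -0.65 (SE 0.132, 95% interval -0.96 to -0.33, limma adjusted p 0.0543).

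The H3.3 chaperones HIRA and DAXX had smaller fold changes. HIRA (ENSG00000100084, chr22:19330698-19447450, minus strand) measured 30.7 and 26.1 TPM in the controls and then 22.6 and 24.2 TPM after knockdown, with a log2 change of -0.26 (SE 0.166, 95% interval -0.66 to 0.13, limma adjusted p 0.385). The groups did not overlap, but the gap of the lower NC sample to the higher sh-ANP32B sample was smaller than the distance between the NC samples. Of the 4299 exon bases of HIRA, 2857 are shared with C22orf39 on the same strand, so the assignment of reads between the genes is uncertain. C22orf39 had between 17.1 and 21.7 TPM in the 4 samples. DAXX (ENSG00000204209, chr6:33318558-33323016, minus strand) was the least abundant chaperone, with 11.7 and 11.9 TPM in the NC samples, against 11.5 and 9.54 TPM under knockdown (log2 fold change -0.16, SE 0.194, limma adjusted p 0.675). DAXX shares 441 of its 3084 exon bases with another annotated gene on its strand, ENSG00000285064, which has no value here.

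Their partners were on both sides of 0. UBN1, a HIRA complex subunit, stood at 40.4 and 38.2 TPM in the NC samples, against 33.6 and 45.3 TPM under knockdown, so that its sh-ANP32B samples lay on either side of NC. CABIN1, another subunit, measured 45.7 and 48.2 TPM in the controls and then 47.3 and 56.8 TPM after knockdown. Their log2 fold changes were -0.01 and 0.14, with limma adjusted p of 0.987 and 0.637. ATRX, the remodeler that recruits DAXX, stood at 26.8 and 29.3 TPM in the NC samples, against 26.8 and 17.7 TPM under knockdown (log2 fold change -0.35, limma adjusted p 0.389).

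**Figure D2:**
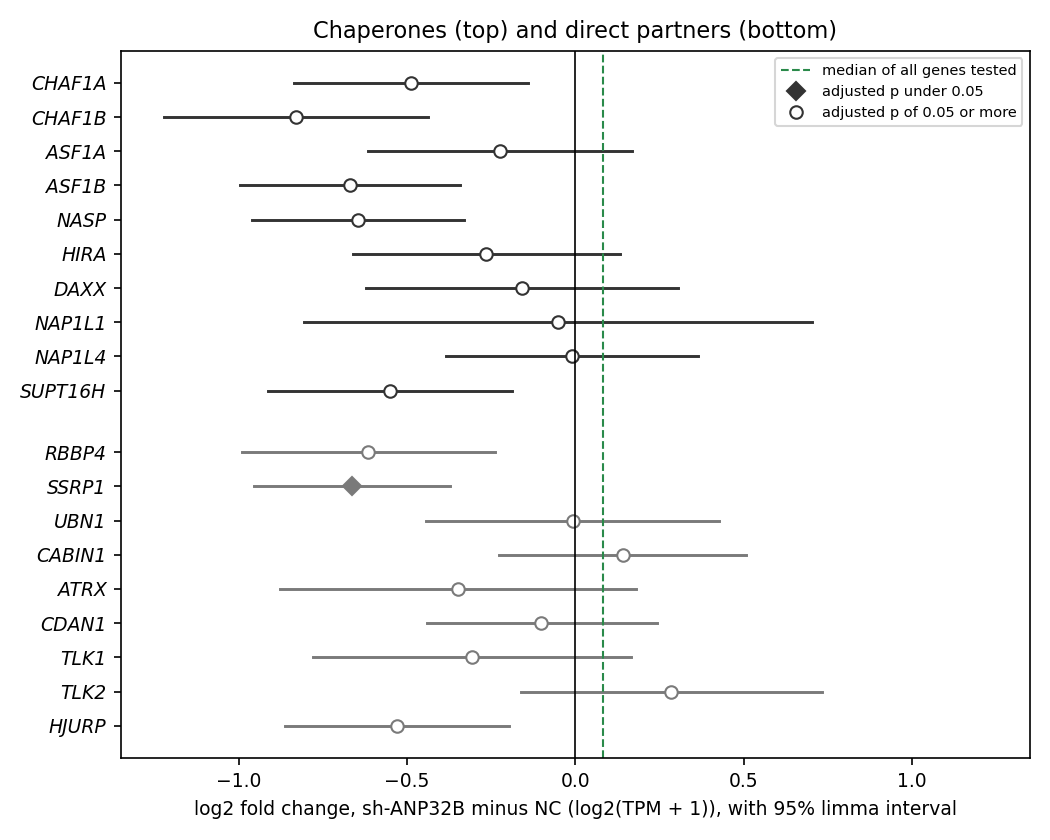
Log2 fold change of sh-ANP32B against NC on the log2(TPM + 1) scale for the 10 chaperones and 9 direct partners, with 95% intervals from limma. Filled diamonds have an adjusted p under 0.05, open circles do not, and the dashed line is the median of all genes tested. SSRP1 is the only filled mark, and the intervals of CHAF1A, CHAF1B, ASF1B, NASP and SUPT16H lie below 0.

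NAP1L1 was the most abundant chaperone, and its sh-ANP32B samples lay further apart than those of the other 9. NAP1L1 (ENSG00000187109, chr12:76036585-76084735, minus strand), a carrier of H2A-H2B, measured 527 and 585 TPM in the controls and then 776 and 370 TPM after knockdown. One sh-ANP32B sample was thus above and the other below both NC samples. The mean over NC was 556 ± 41.1 TPM, and that over the knockdown samples 573 ± 287 TPM (SD, n = 2 each), and the log2 change of -0.05 (SE 0.316, limma adjusted p 0.946) did not exceed that spread. Its 95% interval ran from -0.81 to 0.70. The outcome turned on which sh-ANP32B library was used, since the log2 change was -0.58 without sh-ANP32B replicate 1 and 0.48 without sh-ANP32B replicate 2. Each of these values rests on a lone knockdown sample, whose spread cannot be measured.

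NAP1L4 (ENSG00000205531, chr11:2944431-2992377, minus strand), the other broadly expressed NAP1 gene, stood at 71.0 and 58.0 TPM in the NC samples, against 60.8 and 66.7 TPM under knockdown. The sh-ANP32B samples lay within the NC range, and the log2 change was -0.01 (SE 0.157, limma adjusted p 0.979, 95% interval -0.39 to 0.36). The level of NAP1L1 was 7.42 and 10.1 times that of NAP1L4 in NC, and 12.8 and 5.55 times in sh-ANP32B, with an exact permutation p of 1. GENCODE v44 lists 3 pseudogenes named for each of NAP1L1 and NAP1L4, with which reads may be shared.

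The difference between the sh-ANP32B samples in NAP1L1 accompanied a broader one. Across 15427 genes the log2 difference between sh-ANP32B replicate 2 and replicate 1 had a Spearman rho of 0.577 with the GC content of the longest transcript, and the NC difference had a rho of -0.206, a description of the libraries over genes that share them. NAP1L1, at 37.3% GC, was among the lowest 7.09% of genes in GC content, and replicate 2 lay below replicate 1 by a log2 difference of -1.06. After GC correction this difference was -0.74. ASF1A had a lower GC content of 35.4%, and its replicates differed by -0.10 before GC correction and by 0.25 after it. The other 8 chaperones differed between the sh-ANP32B replicates by -0.33 to 0.17, and after GC correction by -0.42 (DAXX) to 0.10 (NAP1L4). The part of GC content in the NAP1L1 values was not tested.

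**Figure D3:**
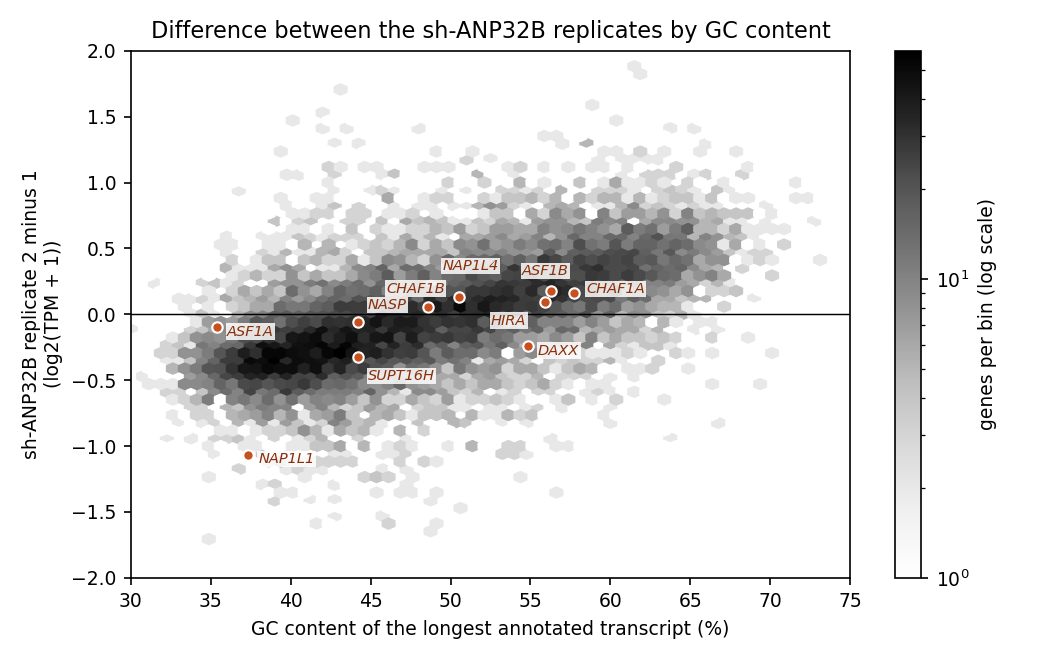
Difference between the sh-ANP32B replicates (replicate 2 minus replicate 1, log2(TPM + 1)) against the GC content of the longest annotated transcript of each gene. Gray bins count genes on a log scale and orange points are the 10 chaperones. Genes of low GC content lie mostly below 0, and NAP1L1 lies at -1.06, the lowest of the 10 chaperones.

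FACT was the complex in which a subunit passed the test. SUPT16H (ENSG00000092201, chr14:21351476-21384019, minus strand), its large subunit, measured 144 and 148 TPM in the controls and then 111 and 88.8 TPM after knockdown. Both sh-ANP32B samples were below NC, at 68.5% of the NC mean, with a log2 change of -0.55 (SE 0.152, 95% interval -0.91 to -0.19, limma adjusted p 0.0958). SSRP1, its DNA-binding partner, stood at 174 and 167 TPM in the NC samples, against 106 and 108 TPM under knockdown, and fell by 0.66 on the log2 scale (SE 0.122, limma adjusted p 0.0448). The ratio of SUPT16H to SSRP1 was 0.826 and 0.888 in NC and 1.05 and 0.821 in sh-ANP32B, so the groups overlapped (exact permutation p = 1). A difference between the subunits in their response was not shown.

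**Figure D4:**
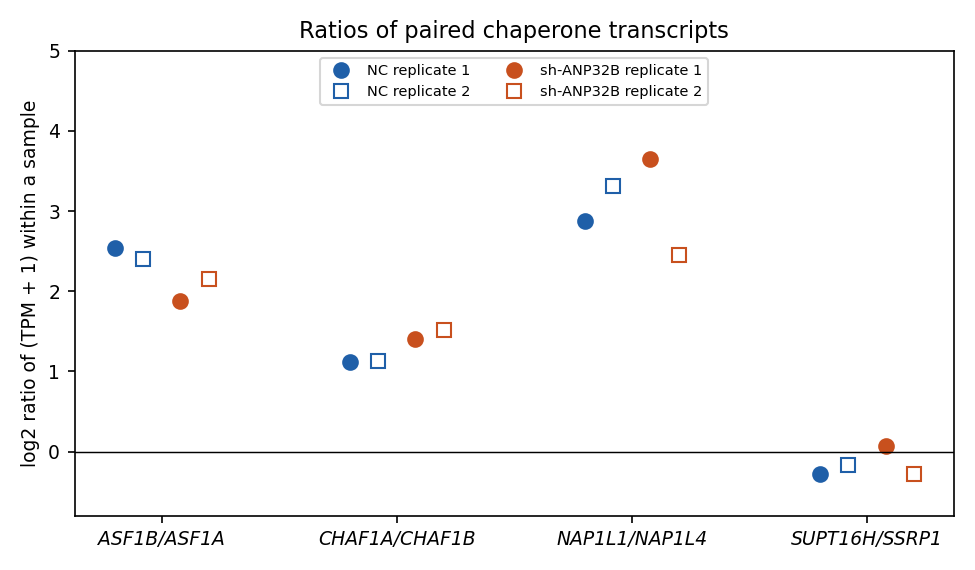
Log2 ratio of (TPM + 1) within each sample for the pairs ASF1B to ASF1A, CHAF1A to CHAF1B, NAP1L1 to NAP1L4 and SUPT16H to SSRP1. Blue marks are NC and orange marks sh-ANP32B samples (circle, replicate 1, open square, replicate 2). The groups are separate for ASF1B to ASF1A and CHAF1A to CHAF1B, and overlap for the other pairs.

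A wider list of 37 chaperones and partners gave 33 tested genes. Of these 3 fell and 0 rose at a limma adjusted p under 0.05, where 1.18% of all genes fell and 2.14% rose. A log2 fold change below 0 was found for 25 of the 33, where 42.1% of all genes had one, and the median was -0.35. The genes that fell were NCL, NPM3 and SSRP1. NCL, the nucleolar protein nucleolin, measured 347 and 347 TPM in the controls and then 212 and 189 TPM after knockdown (log2 fold change -0.79, limma adjusted p 0.0391). NPM3, of the nucleoplasmin family, stood at 118 and 131 TPM in the NC samples, against 70.4 and 77.2 TPM under knockdown (log2 fold change -0.75, limma adjusted p 0.0447). Both sh-ANP32B samples were below both NC samples for 21 of the 33 genes and above them for 4, where the shares over all genes were 21.4% and 33.2%. HJURP, the chaperone of the centromeric histone CENP-A, measured 67.7 and 72.9 TPM in the controls and then 50.6 and 46.2 TPM after knockdown (log2 fold change -0.53, limma adjusted p 0.087). Without NC replicate 1 or NC replicate 2, 0 of the 33 were called, with 0.476% and 0.351% of all genes called lower. Without sh-ANP32B replicate 1 there were 15 lower and 1 higher, against 9.68% and 14.6% of all genes, and without sh-ANP32B replicate 2 there were 12 lower and 1 higher, against 8.47% and 12.3%.

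Among histone variants that chaperones carry, H2AZ1 was called and the H3.3 genes were not. H3-3A and H3-3B, which encode H3.3, had log2 changes of -0.05 and -0.01 (limma adjusted p 0.872 and 0.984). H2AZ1, which encodes H2A.Z, stood at 605 and 634 TPM in the NC samples, against 386 and 403 TPM under knockdown, and fell by 0.65 on the log2 scale (limma adjusted p 0.0442). It was the 1 gene called among 7 histone variant genes tested, where 1.18% of all genes were called lower and 2.14% higher. CENPA had a log2 change of -0.49 (limma adjusted p 0.101).

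Genes of S phase were also lower under knockdown. CAF-1, ASF1B and NASP are most needed while DNA is copied, so a list of 28 replication genes was set beside the chaperones. By a limma adjusted p under 0.05, 17 of these fell and 0 rose, where 1.18% of all genes fell and 2.14% rose. In all 28, both knockdown samples lay below both NC samples, as in 21.4% of all genes. The median log2 fold change was -0.84, with a range from -1.23 to -0.50. The most significant were MCM3 (log2 fold change -1.12), PCNA (-0.95), MCM6 (-0.95), MCM4 (-0.90) and MCM2 (-0.95), with limma adjusted p between 0.027 and 0.0348. CHAF1B, at -0.83, lay within the range of this list, as did ASF1B at -0.67, NASP at -0.65 and SUPT16H at -0.55. The other 6 lay above that range, with CHAF1A just outside it at -0.49 and HIRA, ASF1A, DAXX, NAP1L1 and NAP1L4 between -0.26 and -0.01. Without NC replicate 1 or replicate 2 the number called lower was 3 or 4, against 0.476% or 0.351% of all genes, and without sh-ANP32B replicate 1 or replicate 2 it was 27, against 9.68% or 8.47%. In a bulk sample fewer cells in S phase and less RNA per cell cannot be told apart, and the part of S phase in the chaperone values was not tested.

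**Figure D5:**
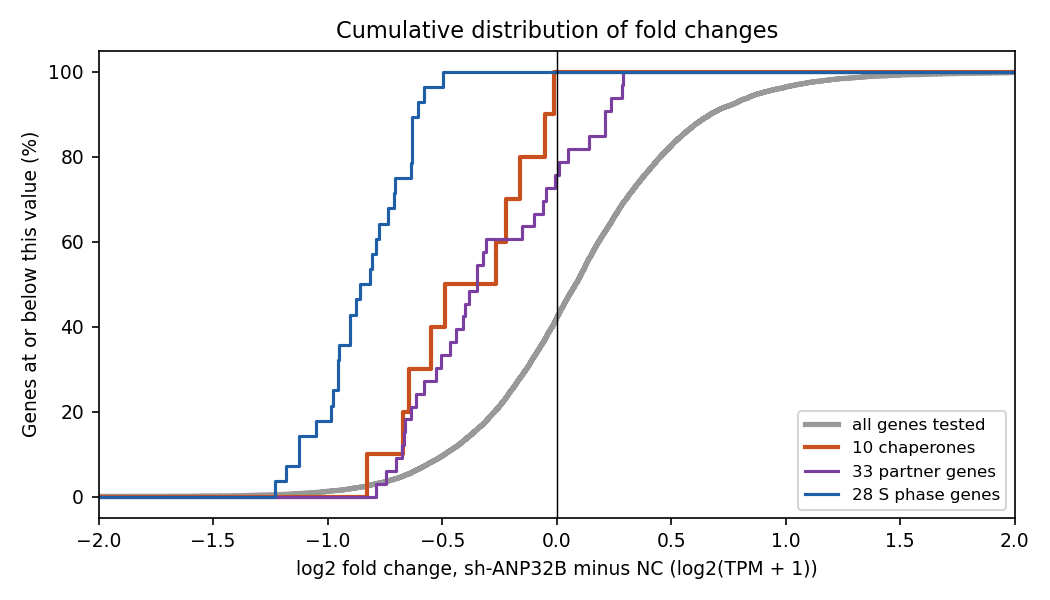
Cumulative share of genes, in percent, at or below each log2 fold change of sh-ANP32B against NC, for all genes tested, the 10 chaperones, the 33 partner genes and the 28 S phase genes. The chaperone curve has its median at -0.38 and reaches 100% below 0, between the curve of the S phase genes (median -0.84) and that of all genes (median 0.08).

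The genes whose 4 values ran closest to the mean of CHAF1A and CHAF1B were sought among 9733 genes of at least 10 TPM. The distance is the root mean square difference of the centred log2(TPM + 1) values over 4 samples. The closest were EIF4A1 (0.0163), H2AZ1 (0.0169), RBX1 (0.0199), TIMELESS (0.0243) and ATF5 (0.0252). Their log2 fold changes lay between -0.67 and -0.63. With 4 samples many genes share such a profile, and the list is a description only.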

How the data were processed

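RNA sequencing of 4 Kasumi-1 samples was analysed, 2 NC and 2 sh-ANP32B. Per the labels, the authors aligned reads to hg38 with HISAT2 2.0.5. The deposited values are TPM, a unit identified from the decimals and column sums, and the quantifier, annotation and filter are not given in the sources used here. TPM keeps no depth, so no counting interval or floor was computed.

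Gene IDs were matched to GENCODE v44, which held 16986 of 18567. Values were converted to log2(TPM + 1) for genes reaching 1 TPM in 2 samples or more, and compared by limma 3.58.1 with an abundance trend in R 4.3.3, two-sided, with Benjamini-Hochberg adjustment over 16817 genes. DESeq2, the study's tool, takes counts and could not be applied to TPM. Fold changes on this scale understate the change of low genes. GC correction used a loess fit (span 0.3) per sample over 15427 genes.

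The chaperones and gene lists were chosen with earlier results of these data known. All chaperones and ANP32B are named, then 9 direct partners, partners past the test up to 10, and S phase and histone variant genes past the test up to 5 each. Scripts used Python 3.11.15, pandas 2.3.3 and matplotlib 3.10.9.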

Additional observations from a re-analysis of the deposited data

How the results depend on the processing

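ANP32B was lower under all 13 alternatives, and lost significance only without the abundance trend, with limma adjusted p 0.0929 at a log2 change of -3.04. Leaving out each replicate gave -3.20 to -2.88. CHAF1A, CHAF1B, ASF1A, ASF1B, HIRA, NASP, DAXX and SUPT16H had a negative log2 fold change in all 13. ASF1B, CHAF1B and NASP were called in 8 of these, CHAF1A and SUPT16H in 4, NAP1L1 in 2, and ASF1A, HIRA, DAXX and NAP1L4 in 0. The calls of NAP1L1 were in opposite directions, at -0.58 without sh-ANP32B replicate 1 and 0.48 without sh-ANP32B replicate 2. Those fits rest on a lone knockdown sample, and they are also among the calls of ASF1B, CHAF1B, NASP, CHAF1A and SUPT16H. The direction of NAP1L1 reversed with GC correction (0.009, also with the block), without NC replicate 2 (0.02) and without sh-ANP32B replicate 2 (0.48), with a range of -0.58 to 0.48 when each replicate was left out. That of NAP1L4 reversed with GC correction (0.008, also with the block), without NC replicate 1 (0.13) and without sh-ANP32B replicate 1 (0.05), with a range of -0.155 to 0.133.

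The number of chaperones called lower, 0 as reported, was 3 with median-of-ratios scaling, 3 without mitochondrial genes, 3 with at least 1 TPM in all 4 samples, 5 with GC correction and 4 under the study's criterion. It was 0 to 6 when each replicate was left out, with 0 to 1 called higher. Beside the counts of partner and S phase genes that follow, 1.18% of all genes were called lower and 2.14% higher as reported. These shares were 6.47% and 11.1% with GC correction, and 6.55% and 12.1% under the study's criterion. Without the abundance trend 0% were called, and 3701 genes had an unadjusted limma p under 0.05. Partner genes called lower, 3 as reported, were 13 with GC correction and 11 under the study's criterion. They were 0 without the abundance trend, where 11 had an unadjusted limma p under 0.05. They were 0 to 15 when each replicate was left out, with 0 to 1 higher. S phase genes called lower, 17 as reported, were 28 with GC correction, 27 under the study's criterion and 0 without the trend (27 at an unadjusted p under 0.05), and 3 to 27 when each replicate was left out. Leaving out a replicate leaves a lone sample, assumed to vary like the other group, and 1 residual degree of freedom.

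Over all genes, 199 were called lower and 360 higher as reported. These were 294 and 236 with median-of-ratios scaling, 998 and 1717 with GC correction, 1101 and 2029 under the study's criterion, 0 and 0 without the trend (3701 at an unadjusted p under 0.05), and 59 to 1628 and 214 to 2451 when each replicate was left out.

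The groups share replicate numbers, and nothing states what these mark. Across genes, the deviations of equal numbers correlated at -0.0925 (Pearson) and -0.168 (Spearman), so they were not taken as pairs. With the replicate block 3 chaperones, 6 partner genes, 491 lower and 982 higher genes were called, and with the replicate block and GC correction 5, 10, 869 and 1487, and 28 S phase genes.

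The log2 ratio of NAP1L1 to NAP1L4 (-0.04) ranged from -0.64 to 0.56 when each replicate was left out, and reversed without NC replicate 2 (0.18) and without sh-ANP32B replicate 2 (0.56). That of SUPT16H to SSRP1 (0.11) ranged from -0.06 to 0.29, and reversed without sh-ANP32B replicate 1 (-0.06). The cause of these shifts was not tested. The unknown depth limits what can be said of the precision of low genes such as DAXX.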
